A study of Saccharomyces cerevisiae with 10 samples.

Results

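The transcripts described here encode the respiratory chain and ATP synthase of *Saccharomyces cerevisiae*, together with the transcription factor gene *HAP4* (YKL109W). The 46 genes were listed by function and name, by a rule that uses no measured value although earlier results of these data were known, from 6612 transcripts in the tables. They are 12 genes of ATP synthase, 9 of complex IV (cytochrome c oxidase), 9 of complex III (the cytochrome bc1 complex), 4 of complex II (succinate dehydrogenase), both cytochromes c, both heme lyases, 3 NADH dehydrogenases, 4 mitochondrial carriers and *HAP4*. RNA was sequenced from 5 replicate cultures of BY *UBR1* -469A>T and 5 of BY, the laboratory strain with wild-type *UBR1*. BY *UBR1* -469A>T is BY edited to carry, at promoter position -469 upstream of the *UBR1* start codon, the base of the vineyard strain RM, and *UBR1* encodes the E3 ubiquitin ligase of the Arg/N-end rule. The methods say that independently derived replicates of each edited strain were kept, and they call the RNA replicates independent. Whether the 5 edited RNA cultures came from separate edited clones is not stated in the sources used here. All 10 cultures grew in synthetic complete medium for about 7 hours to an optical density near 0.4 and were harvested together. The comparison asks how the promoter variant changed RNA levels, here for respiratory genes.

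In respiration, NADH dehydrogenases and succinate dehydrogenase pass electrons to ubiquinone, complex III passes them on to cytochrome c, and complex IV passes them to oxygen. The proton gradient that complexes III and IV build drives ATP synthase, and ADP/ATP and phosphate carriers exchange its substrates and product across the inner membrane. Budding yeast has no complex I and uses NADH dehydrogenases of a single polypeptide in its place. Many of these nuclear genes are repressed by glucose and activated by the Hap2/3/4/5 complex, in which Hap2, Hap3 and Hap5 bind the CCAAT box and Hap4 supplies the activation domain. *HAP4* is the subunit gene that responds to the carbon source.

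Because many respiratory genes are known targets of this complex, the letters of its box were sought in the 500 bases upstream of each start codon in the R64 reference genome, on both strands. The core CCAAT, which reads ATTGG on the other strand, was present in 87.0% of the 46 member windows and in 62.4% of the 6006 windows of nuclear genes. The longer form ACCAATNA (TNATTGGT on the other strand), which contains the core, was present in 20 member windows, or 43.5%, against 8.59% of nuclear gene windows. A match describes the letters and is not a shown binding site, and a window can reach into a neighboring gene. Windows of *COX4*, *CYT1*, *CYC1*, *NDE2* and both heme lyase genes, *CYC3* and *CYT2*, held no core match, which says only that these letters were not found there. The longer form is in capitals in the following 30-base stretches, each on its gene's strand, shown for *HAP4* and for members of 5 other groups whose values follow.
*HAP4* (chrXI:232121-232150, plus strand, bases -95 to -88 from the start codon in capitals): tccacacatatTTATTGGTctcctagtaca
*SDH1* (chrXI:171429-171458, minus strand, -318 to -311): ggcgggggtggACCAATCAcagcgcagaac
*QCR7* (chrIV:1496712-1496741, minus strand, -182 to -175): atcttgttttgACCAATCAggagcgacgcg
*COX13* (chrVII:144584-144613, plus strand, -213 to -206): ttttttttcccACCAATGAgaggcggtact
*PET9* (chrII:164289-164318, minus strand, -310 to -303): atgcgctatgcTGATTGGTgtagagcgcgg
*NDI1* (chrXIII:30017-30046, minus strand, -228 to -221): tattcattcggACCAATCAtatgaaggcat

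The edited base itself lies on chromosome VII at 866222 in R64, on the minus strand of *UBR1*. The 29 reference bases centered on it (chrVII:866208-866236), shown because they hold the only designed difference between the strains, have in capitals the A that the edit replaces by T.
*UBR1* -469: tgatgcgacggtttAttttctcttcctct
The complex III gene *QCR9* (YGR183C, 859063 to 859476, minus strand) is the member nearest to the edit, and 424 bases separate it from the 3′ end of *UBR1*. *UBR1* had 162, 166, 179, 175 and 183 normalized CPM in BY *UBR1* -469A>T and 156, 154, 157, 134 and 142 in BY (log2 fold change 0.21, SE 0.047, edgeR adjusted p = 0.019). Every edited library was above every BY library.

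Estimated counts summed to between 71103539 and 97644549 per library, and the 46 members took between 0.721% and 1.02% of them. CPM here are counts scaled to a common library total after TMM normalization. All 46 members had at least 10 counts in every library and were tested among 5987 transcripts with edgeR's quasi-likelihood test and 2 surrogate variables, and a transcript was called at a Benjamini-Hochberg adjusted p under 0.1. Fold changes are BY *UBR1* -469A>T over BY. Member counts per library ran from 279, for *NDE2*, to 91012, for *ATP2*. In bulk RNA, a change in RNA per cell and a change in the share of cells that express a gene cannot be told apart. Of the genes deleted in BY4741, the strain named in the labels, *HIS3*, *LEU2*, *MET17* and *URA3* all had at least 4876 counts in every library. The study's strain list gives BY as deleted for *HIS3* and *HO*. Both descriptions thus give *HIS3* as deleted, yet it had 4876 to 9374 counts per library, and the cause was not tested. Libraries of 1 strain spread along a main axis, the leading principal component of deviations from strain means, which held 65.1% of that variance. Its sign was set so that positions rise with replicate number. Replicates 1 to 5 lay at -16.8, -6.68, 3.23, 6.51 and 13.7 in BY *UBR1* -469A>T. In BY they lay at -8.05, -11.6, -4.26, 5.75 and 18.2. The axis thus largely followed replicate number, and what that order stands for was not tested. RNA was extracted in batches holding both strains equally, and batch per library was not used here.

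Of the 46 members, *HAP4* and the ADP/ATP carrier gene *AAC3* rose in BY *UBR1* -469A>T and the heme lyase genes *CYC3* and *CYT2* fell, while none of the 34 subunit genes of complexes II, III and IV and ATP synthase was called. Called higher were 2 of 46 members, against 11.9% of all tested transcripts. Called lower were also 2 of 46 members, against 9.32% of all tested transcripts, and the share called in either direction was 8.70% of members and 21.2% of all. At the same adjusted p threshold the study reported far fewer changed transcripts, from a DESeq2 fit that also held batch and optical density. The shares of all transcripts given here therefore belong to this fit. No member had all 5 BY *UBR1* -469A>T libraries above or below all 5 BY libraries, whereas 1.54% of all transcripts were above and 1.39% below in this sense. The median log2 fold change was 0.024 over the members and 0.0012 over all transcripts, and 28 members had a positive and 18 a negative estimate. The signs depended on the covariates. In BY the first surrogate variable was 0.31, 0.42, 0.22, 0.028 and -0.35 in replicates 1 to 5. In BY *UBR1* -469A>T it was 0.31, 0.089, -0.20, -0.26 and -0.58. It was thus uneven between the strains, and a fit that holds it can take up part of a strain difference. With 1 surrogate variable 38 of 46 estimates were positive, with a median of 0.080. Without surrogate variables 39 of 46 estimates were negative, with a median of -0.10 against -0.0054 for all transcripts, and edgeR called none of the 5987 transcripts, although 1400 of them and 4 members had an unadjusted p under 0.05. DESeq2 with 2 surrogate variables called the same 4 members. Whether subunits were called depended on the fit, and with 3 surrogate variables 5 were called higher and 2 lower. With 3, 1841 of all 5987 transcripts were called, 1027 of them higher. With a block for replicate number and 0 surrogate variables, 14 subunits were called lower and 0 higher. That fit called 2373 of all 5987 transcripts, 1268 of them higher. With that block and 2 surrogate variables no member was called. No label ties the replicate numbers to a batch.

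**Figure D1:**
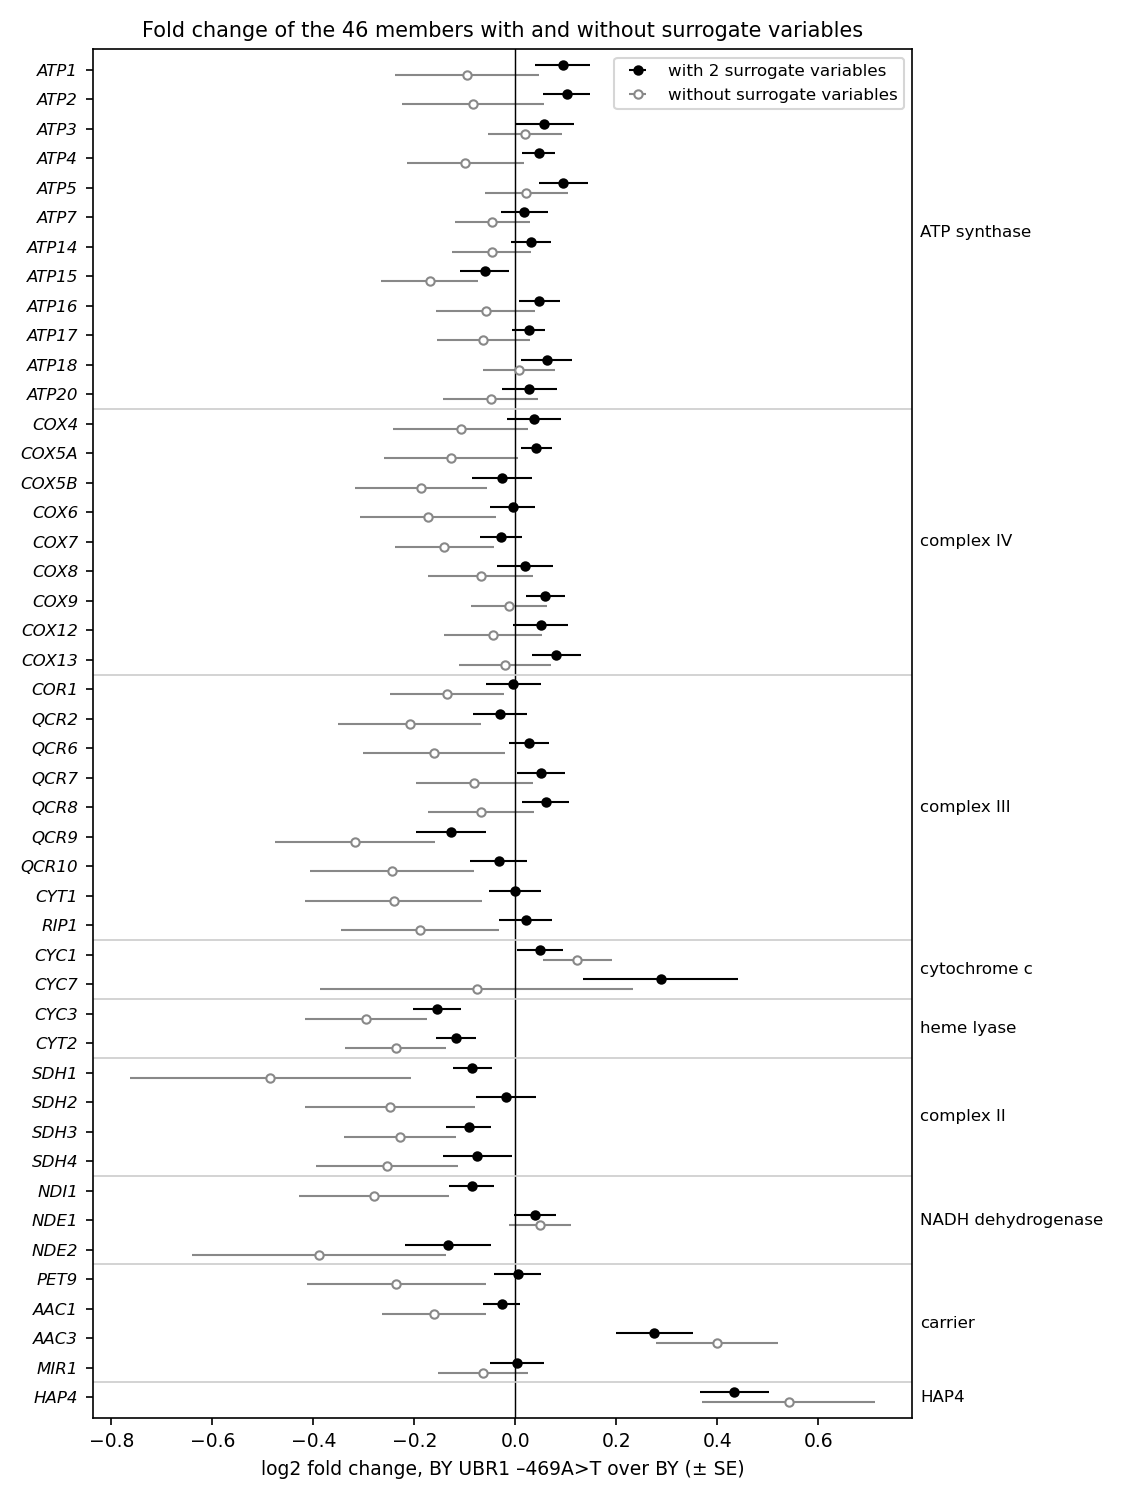
Log2 fold change of BY *UBR1* -469A>T over BY for each of the 46 members (rows, grouped by complex), with bars of ± SE; filled points come from the fit with 2 surrogate variables and open points from the fit without. Filled points of the 34 subunits lie between -0.13 and 0.10, and 31 of the 34 open points lie below 0.

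*HAP4*, the carbon-responsive activator subunit, had the largest rise among the members. Its values were 193, 218, 247, 245 and 252.2 normalized CPM in the BY *UBR1* -469A>T libraries and 95.1, 158, 158, 178 and 205 in the BY libraries, with means of 231 ± 25.2 and 159 ± 40.4 (SD, n = 5 each). The strains overlapped in 1 place, since the lowest edited library was below the highest BY library. At each replicate number the edited library was above the BY library. The log2 fold change was 0.43 (SE 0.068, adjusted p = 0.0029, edgeR). An exact two-sided permutation test of the 5 against 5 log2 CPM values gave an unadjusted p = 0.016. Adjusted over all tested transcripts, that permutation p was 0.26. In the deposited TPM, the median was 64.3 in BY *UBR1* -469A>T and 45.5 in BY. Over 21 alternative fits the adjusted p ranged from 4.0e-08 to 0.36 and the fold change stayed positive, and 18 fits were under the threshold. The call was lost without surrogate variables (0.54, adjusted p = 0.18) and with 1 (0.32, adjusted p = 0.36). Without BY replicate 1, which had the lowest *HAP4* value, the log2 fold change was 0.29 (adjusted p = 0.0051).

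The other regulators of respiration did not share this change as a group. Among 12 genes in a list of regulators, 1 was called higher and 1 lower, against 11.9% and 9.32% of all tested transcripts. *HAP2*, *HAP3* and *HAP5*, the DNA-binding partners of Hap4, had log2 fold changes of -0.026, -0.053 and -0.017 and were not called. Nor was the heme-responsive activator gene *HAP1*, at -0.095, which by the paper carries a Ty1 insertion in BY. *ROX1*, which encodes a repressor of hypoxic genes, had 36.4, 44.8, 56.2, 59.3 and 68.9 CPM in BY *UBR1* -469A>T and 31.4, 32.2, 32.8, 35.6 and 43.6 in BY, and rose by 0.35 (SE 0.054, adjusted p = 0.0026, edgeR). *CAT8*, which encodes an activator of gluconeogenic genes, had 33.4, 26.8, 16.9, 19.4 and 11.9 CPM in BY *UBR1* -469A>T and 27.3, 42.9, 45.1, 45.99 and 31.8 in BY. It fell by 0.60 on the log2 scale (SE 0.065, adjusted p = 0.00061, edgeR). For both genes the strains overlapped, and neither was called without surrogate variables.

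The transcripts that followed *HAP4* most closely over the 10 libraries, strain difference included, were *RIE1* (Pearson r = 0.99), *VHS1* (0.99), *SFK1* (0.98), *HSP30* (0.98) and *FES1* (0.97). *VHS1* encodes a protein kinase, *HSP30* a stress-induced membrane protein and *FES1* a nucleotide exchange factor of cytosolic Hsp70. None of the 5 is a member, and these correlations share the libraries' scaling and the main axis.

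**Figure D2:**
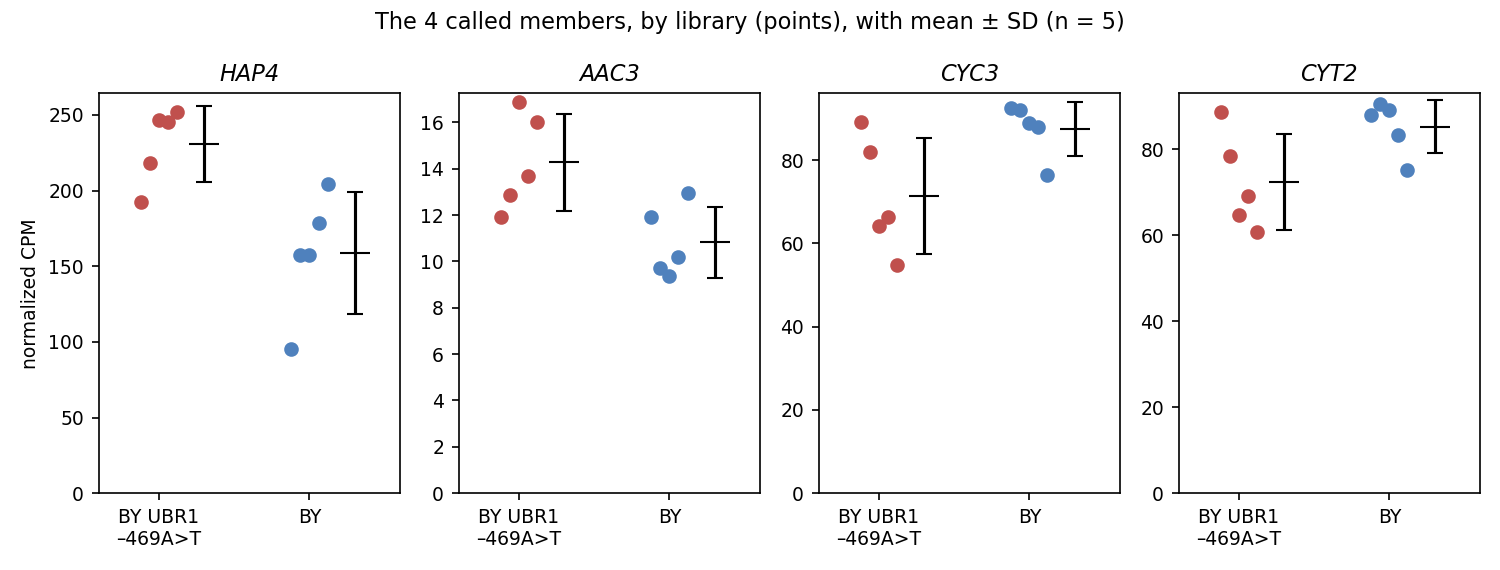
Normalized CPM of the 4 called members in each library (points, 5 per strain) with mean ± SD beside them; each panel starts at 0 and has its own scale. In every panel the strains overlap, and for *HAP4* 4 edited libraries lie above the highest BY library at 205.

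The ADP/ATP carriers differed among themselves. *AAC3* (YBR085W), the isoform known for its expression under low oxygen, had 11.9, 12.9, 16.9, 13.7 and 16.0 CPM in BY *UBR1* -469A>T and 11.9, 9.71, 9.36, 10.2 and 13.0 in BY. Its lowest edited values fell within the BY range. It rose by 0.28 on the log2 scale (SE 0.076, adjusted p = 0.038, edgeR). An exact two-sided permutation test of *AAC3* gave an unadjusted p = 0.032, and 0.26 when adjusted over all tested transcripts. Across its 21 alternative fits the adjusted p ran from 0.0082 to 0.81 and 17 were under the threshold. It was lost without surrogate variables (0.40, adjusted p = 0.18), with 1 (0.24, adjusted p = 0.35) and without edited replicate 2 (0.26, adjusted p = 0.15), and the direction turned in 1 fit, the one with the adjusted p of 0.81 (-0.084). *PET9*, the main carrier isoform in aerobic cells, was not called. It had 524, 471, 400, 399 and 388 CPM in BY *UBR1* -469A>T and 674, 620, 515, 428 and 332 in BY, the BY values spanning the whole edited range (log2 fold change 0.0046, SE 0.047). *AAC1*, a minor isoform, ranged from 16.1 to 22.0 CPM in BY *UBR1* -469A>T and from 17.8 to 23.6 in BY (-0.027, SE 0.037). *MIR1*, the phosphate carrier gene, ranged from 214 to 250 CPM in BY *UBR1* -469A>T and from 215 to 292 in BY (0.0031, SE 0.053). In TPM, which corrects for length, the medians of *PET9*, *AAC1* and *AAC3* were 207, 9.56 and 7.37 in BY *UBR1* -469A>T and 289, 12.8 and 5.74 in BY.

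Both heme lyase genes fell slightly. Heme lyases attach heme to cytochromes in the intermembrane space, *CYC3* (YAL039C) for cytochrome c and *CYT2* (YKL087C) for cytochrome c1. *CYC3* had 89.2, 81.9, 64.2, 66.2 and 54.9 CPM in BY *UBR1* -469A>T and 92.4, 92.0, 88.8, 88.0 and 76.3 in BY. Its log2 fold change was -0.15 (SE 0.048, adjusted p = 0.057, edgeR; exact two-sided permutation test, p = 0.071). *CYT2* followed nearly the same values, 88.6, 78.3, 64.7, 69.2 and 60.8 CPM in BY *UBR1* -469A>T and 88.0, 90.5, 89.2, 83.3 and 75.3 in BY (-0.12, SE 0.040, adjusted p = 0.078, edgeR; exact two-sided permutation test, p = 0.071). Both permutation p values were unadjusted, and each was 0.27 when adjusted over all tested transcripts. In both genes 2 edited libraries lay within the BY range and 3 lay below all BY libraries. At each replicate number *CYC3* was lower in the edited library, and so was *CYT2* except in replicate 1. The *CYC3* call held in 12 of 21 alternatives (adjusted p from 0.00096 to 0.55) and the *CYT2* call in 10 (from 0.0037 to 0.68). Neither held without surrogate variables (adjusted p = 0.20 for both), with 1 (0.55 for *CYC3* and 0.59 for *CYT2*) or without BY replicate 4 or 5 or edited replicate 2, 3, 4 or 5 (adjusted p up to 0.43 for *CYC3* and up to 0.45 for *CYT2*), and the *CYT2* call was also lost without BY replicate 2 (0.12) or 3 (0.11).

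The cytochromes c, the substrates of *CYC3*, were not called. *CYC1* (iso-1, the main aerobic form) had 39.4, 44.8, 43.1, 48.4 and 47.8 CPM in BY *UBR1* -469A>T and 41.5, 36.6, 40.3, 42.9 and 44.0 in BY, with a log2 fold change of 0.049 (SE 0.046, adjusted p = 0.52, edgeR). *CYC7* (iso-2, the form favored under low oxygen and stress) had 84.4, 72.8, 69.3, 37.2 and 30.2 CPM in BY *UBR1* -469A>T and 52.6, 90.1, 78.2, 47.6 and 41.7 in BY. It had the widest spread of the members in BY *UBR1* -469A>T, with 2.80-fold between the highest and lowest library. Its log2 fold change was 0.29 with a large error (SE 0.15, adjusted p = 0.24, edgeR) and -0.077 (SE 0.31) without surrogate variables. Of all member pairs only *CYC1* and *CYC7* shared any 31-base word of coding sequence, 5 words, and the other 44 members shared none with any other gene.

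Complex II, which oxidizes succinate and feeds ubiquinone, had the lowest median estimate of the 4 complexes (-0.080). All 4 of its subunits had a negative log2 fold change, and none was called in the main fit. With at least 100 counts in every library, *SDH1* and *SDH3* were called lower (-0.15 and -0.11, adjusted p = 0.0068 and 0.077, edgeR). That fit called 1700 of 5571 transcripts, 925 of them higher. With a block for replicate number and 0 surrogate variables all 4 complex II genes were called lower, *SDH1* at -0.48 (adjusted p = 0.012, edgeR). There 2373 of 5987 transcripts were called, 1268 of them higher. With that block and 2 surrogate variables no member was called. *SDH1*, the flavoprotein subunit, had 250.2, 205, 162, 135 and 105.2 CPM in BY *UBR1* -469A>T and 308, 316, 255, 192 and 130.03 in BY. The ranges overlapped widely, and replicates of 1 strain differed by up to 2.38-fold in BY *UBR1* -469A>T and 2.43-fold in BY. No label ties replicate numbers to a batch, but at each number *SDH1* was lower in the edited library. Its log2 fold change was -0.085 (SE 0.038, adjusted p = 0.17, edgeR) with 2 surrogate variables and -0.48 (SE 0.28, adjusted p = 0.28) without them. *SDH2*, the iron-sulfur subunit, ranged from 118 to 183 CPM in BY *UBR1* -469A>T and from 124 to 209 in BY (-0.018, SE 0.059). The membrane anchors *SDH3* and *SDH4* had log2 fold changes of -0.092 (SE 0.045) and -0.075 (SE 0.069). *SDH3* ranged from 143 to 193 CPM in BY *UBR1* -469A>T and from 158 to 219 in BY, and *SDH4* from 106 to 158 in BY *UBR1* -469A>T and from 122 to 184 in BY.

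Of the 9 complex III genes, 4 had positive and 5 negative estimates and none was called. The smallest p belonged to *QCR9*, a small subunit next to *UBR1* on the chromosome. It had 95.3, 81.7, 73.6, 61.5 and 69.2 CPM in BY *UBR1* -469A>T and 118, 112, 97.4, 74.8 and 73.2 in BY. Its log2 fold change was -0.13 (SE 0.069, adjusted p = 0.25, edgeR), in the opposite direction to *UBR1*, and the strains overlapped. At each replicate number *QCR9* was lower in the edited library. With a block for replicate number and 0 surrogate variables *QCR9* was called lower (-0.31, adjusted p = 0.014, edgeR). *QCR8* and *QCR7*, which encode other small subunits, had log2 fold changes of 0.060 (SE 0.046) and 0.050 (SE 0.048). *CYT1*, the cytochrome c1 that *CYT2* matures, had the largest p (-0.00073, SE 0.052). It ranged from 126 to 185 CPM in BY *UBR1* -469A>T and from 117 to 219 in BY.

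Complex IV had 6 positive and 3 negative estimates among 9 nuclear genes, with a median of 0.037 and none called. *COX13* had 148, 139, 134, 117 and 124 CPM in BY *UBR1* -469A>T and 151, 145, 142, 117 and 117 in BY (0.081, SE 0.048, adjusted p = 0.30, edgeR). *COX9* ranged from 73.9 to 86.2 CPM in BY *UBR1* -469A>T and from 72.3 to 92.9 in BY (0.060, SE 0.038), and *COX6* had the largest p of the complex (-0.0050, SE 0.045). Subunit 5 has alternative isoforms, *COX5A* for aerobic and *COX5B* for hypoxic growth. *COX5A* had 138, 126, 115, 108 and 101 CPM in BY *UBR1* -469A>T and 161, 143, 128, 111 and 98.8 in BY (0.042, SE 0.030). *COX5B* had 118, 108, 101, 81.5 and 78.1 CPM in BY *UBR1* -469A>T and 119, 130, 114, 95.5 and 94.6 in BY (-0.026, SE 0.059). Neither isoform was called.

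ATP synthase had 11 positive estimates and 1 negative, *ATP15*, among 12 genes, with a median of 0.047 and none called. *ATP2*, the catalytic beta subunit, had 958, 921, 854, 769 and 765 CPM in BY *UBR1* -469A>T and 1106, 1065, 932, 770 and 648 in BY (0.10, SE 0.047, adjusted p = 0.18, edgeR). *ATP1*, the alpha subunit, had 715, 678, 622, 557 and 568 CPM in BY *UBR1* -469A>T and 794, 809, 704, 570 and 478 in BY (0.094, SE 0.055). *ATP5*, a stalk subunit, ranged from 189 to 221 CPM in BY *UBR1* -469A>T and from 179 to 235 in BY (0.095, SE 0.049), and *ATP7* had the largest p (0.018, SE 0.046). For *ATP1* and *ATP2* the BY libraries gave both the highest and the lowest values of all 10. Without surrogate variables 9 of the 12 estimates were negative, *ATP1* and *ATP2* included (-0.096 and -0.083).

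Of the NADH dehydrogenase genes, none was called in the main fit. Among 21 alternative fits *NDI1* was called lower in 5, *NDE2* in 1 and *NDE1* in 0. *NDI1*, the internal enzyme that faces the matrix, had 303, 279, 236, 211 and 190 CPM in BY *UBR1* -469A>T and 279, 359, 332, 278 and 233 in BY (-0.087, SE 0.045, adjusted p = 0.23, edgeR). *NDE1*, the main external enzyme, was nearly level at 557, 572, 570, 545 and 569 CPM in BY *UBR1* -469A>T and 464, 544, 587, 552 and 571 in BY (0.039, SE 0.041). *NDE2*, the minor external enzyme, ranged from 3.13 to 8.43 CPM in BY *UBR1* -469A>T and from 5.71 to 9.31 in BY (-0.13, SE 0.085). In TPM, medians of *NDE1*, *NDI1* and *NDE2* were 149, 67.7 and 1.42 in BY *UBR1* -469A>T and 155, 85.7 and 1.98 in BY.

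The levels per length within complexes were compared in TPM. In ATP synthase, *ATP2* had a median of 247 TPM in BY *UBR1* -469A>T and 294 in BY, *ATP1* 167 in BY *UBR1* -469A>T and 206 in BY, and *ATP3*, the gamma subunit, 151 in BY *UBR1* -469A>T and 160 in BY. In complex II, *SDH1* was lowest at 36.1 TPM in BY *UBR1* -469A>T and 62.2 in BY, and *SDH3* highest at 162 TPM in BY *UBR1* -469A>T and 221 in BY. TPM of *ATP15*, *ATP18*, *COX7*, *COX9* and *QCR9* rest on effective lengths of only 19.5 to 31.9 bases and are not comparable with those of longer genes.

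The subunit transcripts varied together between replicates of 1 strain. Summed over the 34 subunits, the libraries held 6983, 6528, 6136, 5413 and 5508 CPM in BY *UBR1* -469A>T and 7849, 7572, 6949, 5702 and 5209 in BY, with means of 6114 ± 668 and 6656 ± 1157 (SD, n = 5 each). The edited values lie inside the BY range. The median ratio of the highest to the lowest library was 1.31 over the members and 1.22 over all transcripts in BY *UBR1* -469A>T, and 1.42 and 1.24 in BY. As deviations from strain means, all 34 subunits correlated negatively with the main axis (median r = -0.90, n = 10 libraries), whereas 51.1% of all transcripts did. *CYC1*, *NDE1*, *AAC3* and *HAP4* were the 4 members on the positive side. The main axis was computed from the same libraries, members included.

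**Figure D3:**
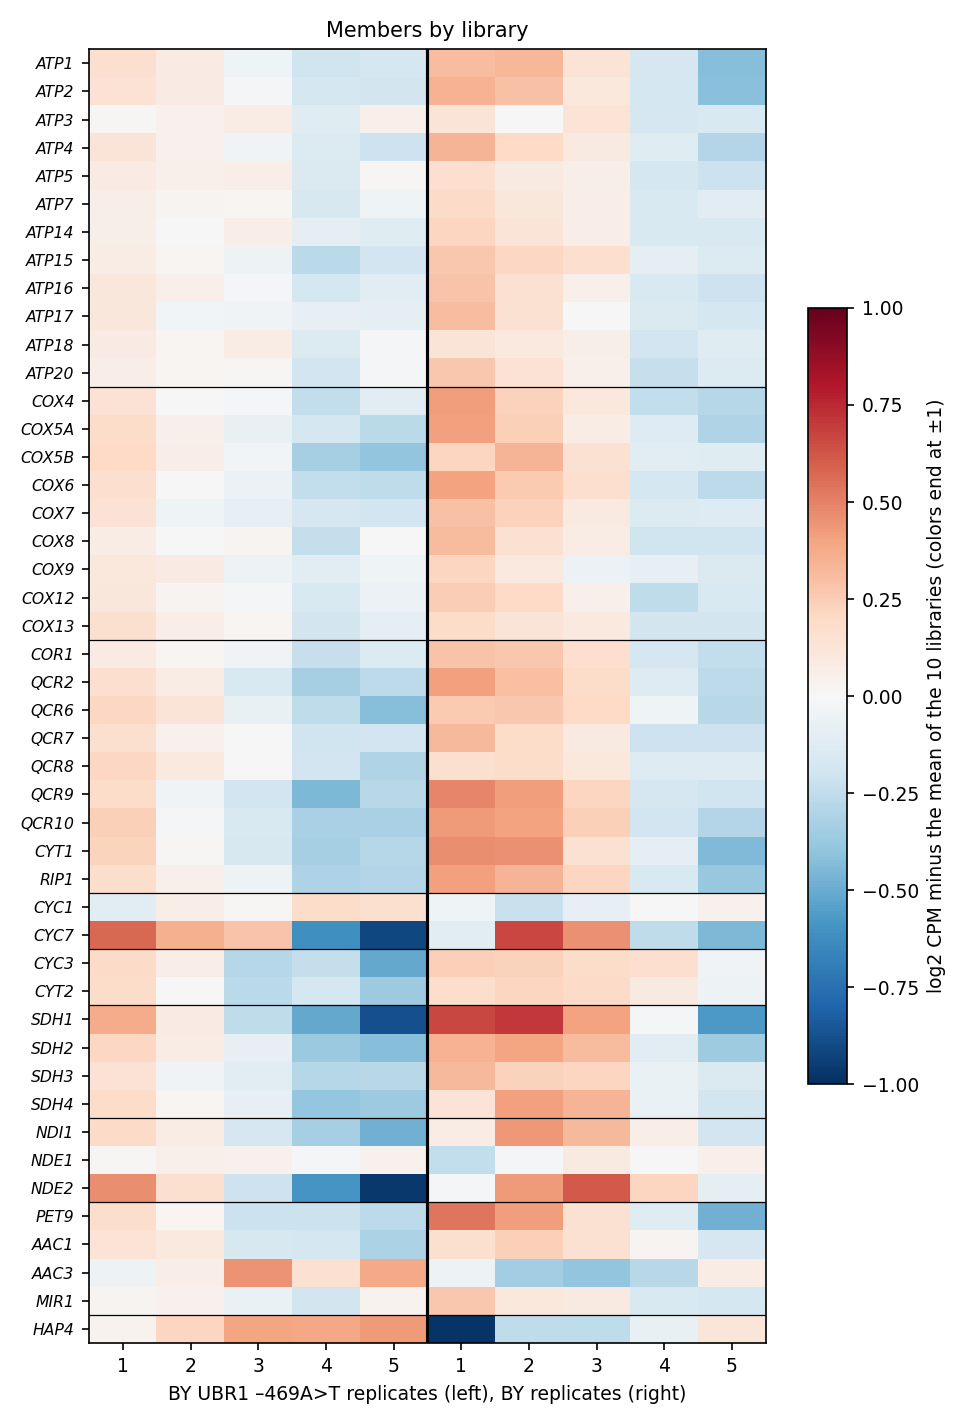
Log2 CPM of each of the 46 members (rows, grouped by complex) minus its mean over the 10 libraries, BY *UBR1* -469A>T replicates 1 to 5 left and BY replicates 1 to 5 right; red is above and blue below the mean, and colors end at ±1. Most rows share 1 pattern across libraries within each strain, while *HAP4*, *AAC3*, *CYC1* and *NDE1* do not follow it, having positive correlations with the main axis.

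Between replicates of 1 strain, *HAP4* and the 34 subunit transcripts moved in opposite directions. In deviations from strain means, all 34 subunits correlated negatively with *HAP4* (median r = -0.80), while 50.4% of all transcripts did, with a median of -0.015. Outside the subunits, *NDE1* (r = 0.81), *CYC1* (0.36) and *AAC3* (0.19) correlated positively with *HAP4*. Summed subunits against *HAP4* gave Pearson r = -0.81 and Spearman rho = -0.93 over the 10 libraries, and r = -0.78 with the 2 libraries farthest in *HAP4* left out. *HAP4* itself correlated with the main axis (r = 0.70, rho = 0.88, and 0.54 without the 2 libraries farthest on the axis). In both strains subunit sums largely fell and *HAP4* largely rose in order of replicate number, so the opposition cannot be told apart from that order. These are descriptions of 10 libraries that share a scaling and an axis, not tests.

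**Figure D4:**
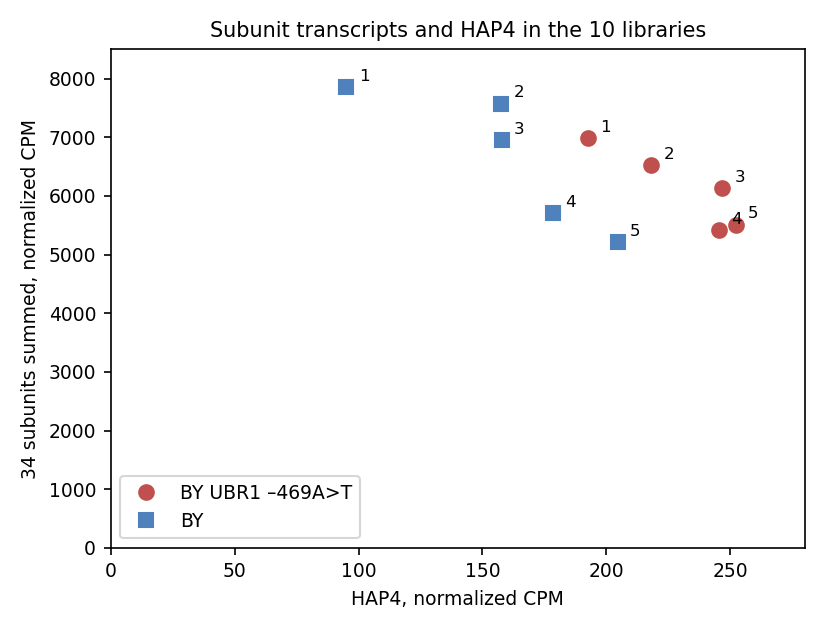
Summed normalized CPM of the 34 subunit genes (vertical axis) against *HAP4* normalized CPM (horizontal axis) in each library, circles for BY *UBR1* -469A>T and squares for BY, numbered by replicate; both axes start at 0. Within each strain, libraries with more *HAP4* tend to have lower subunit sums, and at sums of 5413 and 5508 in edited libraries *HAP4* was 245 and 252.2 CPM, against 178 and 205 CPM at sums of 5702 and 5209 in BY replicates 4 and 5.

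Ratios of paralogs, which do not move with library scaling, were compared by exact two-sided permutation tests of 5 against 5, for which the smallest p is 0.0079. With all 10 libraries, none of the 4 ratios differed beyond the spread. The log2 ratio of *COX5B* over *COX5A* was -0.28 ± 0.096 in BY *UBR1* -469A>T and -0.20 ± 0.14 in BY (SD, n = 5 each, exact p = 0.31). That of *CYC7* over *CYC1* was 0.29 ± 0.76 in BY *UBR1* -469A>T and 0.53 ± 0.58 in BY (SD, n = 5 each, exact p = 0.57). *NDE2* over *NDE1* was -6.75 ± 0.57 in BY *UBR1* -469A>T and -6.25 ± 0.26 in BY (SD, n = 5 each, exact p = 0.11). *AAC3* over *PET9* was -4.94 ± 0.39 in BY *UBR1* -469A>T and -5.54 ± 0.53 in BY, a difference of 0.60 (SD, n = 5 each, exact p = 0.071). Adjusted over the 4 ratios, the p values were 0.41, 0.57, 0.22 and 0.22. In TPM, the median ratio of *COX5B* to *COX5A* was 0.88 in BY *UBR1* -469A>T and 0.92 in BY, and that of *CYC7* to *CYC1* was 1.49 in BY *UBR1* -469A>T and 1.17 in BY. As deviations from strain means, *AAC3* over *PET9*, *NDE2* over *NDE1* and *CYC7* over *CYC1* followed the main axis (r = 0.95, -0.88 and -0.85). *COX5B* over *COX5A* did not (r = 0.026). BY replicate 5 (18.2) and edited replicate 1 (-16.8) lie at the ends of that axis. Leaving out 1 library brought 3 of the 4 differences to an unadjusted exact p under 0.05, and that of *CYC7* over *CYC1* ranged from -0.45 to -0.0079. The p values below were picked from tests of every ratio that each left out 1 library. The difference of *AAC3* over *PET9* was 0.81 without BY replicate 5 (exact p = 0.024, unadjusted) and 0.73 without edited replicate 1 (exact p = 0.048, unadjusted). That of *NDE2* over *NDE1* was -0.69 without edited replicate 1 (exact p = 0.024, unadjusted) and -0.32 without edited replicate 5, and that of *COX5B* over *COX5A* was -0.14 without BY replicate 1 (exact p = 0.048, unadjusted) and -0.043 without BY replicate 5.

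**Figure D5:**
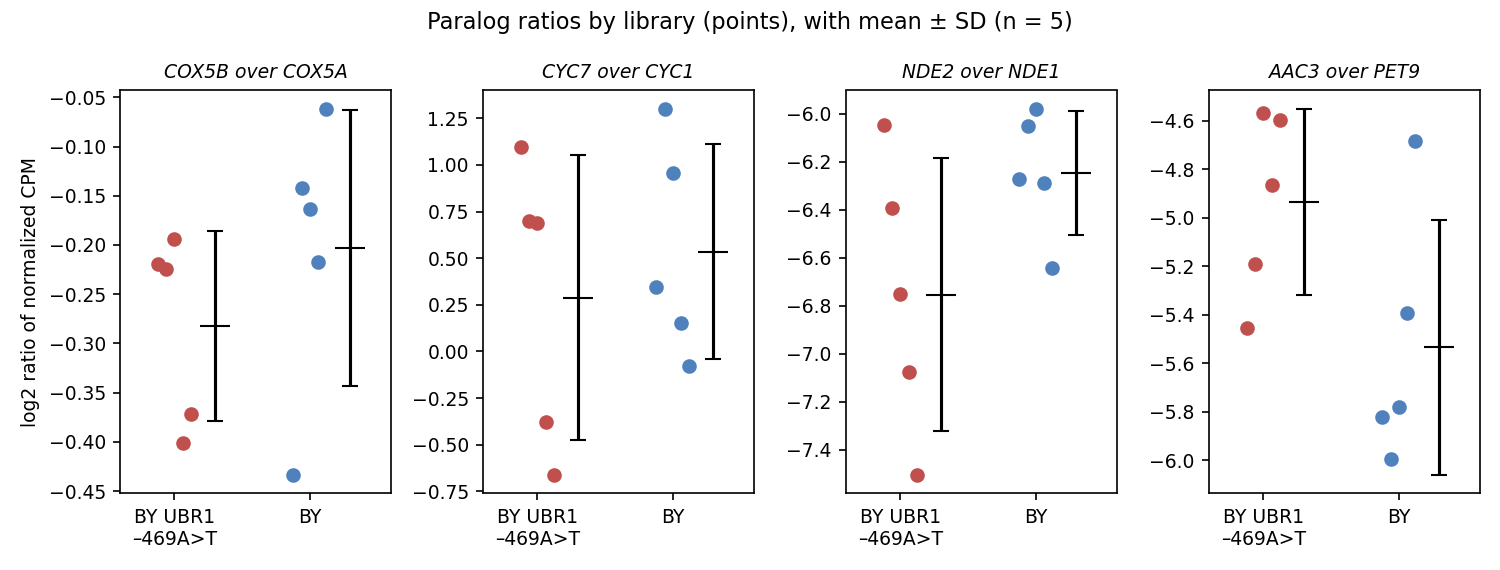
Log2 ratio of normalized CPM for 4 pairs of paralogs in each library (points, 5 per strain) with mean ± SD; each panel has its own vertical scale and does not start at 0. The strains overlap in all 4 panels, and the ratio of *AAC3* over *PET9* had means of -4.94 in BY *UBR1* -469A>T and -5.54 in BY.

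Genes around these complexes were counted from lists drawn up by function. Of 98 nuclear genes in 8 such lists, the regulators included, 3 were called higher and 15 lower, or 18.4% against 21.2% of all. The 30 assembly factors of complexes II to IV and ATP synthase held most of the lower calls, 9, or 9 of 30 against 9.32% of all transcripts called lower, and 1 was called higher. *COX10*, the heme A farnesyltransferase, had 37.0, 33.9, 29.1, 31.5 and 29.5 CPM in BY *UBR1* -469A>T and 38.3, 39.9, 41.3, 39.4 and 37.8 in BY, with no overlap, and fell by 0.22 on the log2 scale (SE 0.042, adjusted p = 0.0082, edgeR). *PET117*, an assembly factor of complex IV, and *CBP6*, which acts on cytochrome b synthesis, each fell by 0.19 (adjusted p = 0.060 and 0.015, edgeR). *CBP6* did not overlap between strains, with 26.0 to 27.5 CPM in BY *UBR1* -469A>T and 28.7 to 32.1 in BY. Without surrogate variables 27 of the 30 estimates were also negative and none was called.

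In the remaining lists, the share called was 9.09% for the TCA cycle, 12.5% for heme synthesis and 20.0% for mitochondrial translation activators. It was 50.0% for the 4 other electron donors, against 21.2% of all tested transcripts. Of 11 TCA cycle genes only *LSC2*, a succinyl-CoA ligase subunit, was called (-0.17, adjusted p = 0.027, edgeR), and of 11 coenzyme Q synthesis genes and 12 other respiratory subunits none was. Of 8 heme synthesis genes, *HEM12*, uroporphyrinogen decarboxylase, rose by 0.12 (adjusted p = 0.043, edgeR), every edited library lying above every BY library. Of 10 activators of mitochondrial translation, *PET54* and *AEP2* fell (-0.13 and -0.10, adjusted p = 0.080 and 0.089, edgeR). Among 4 other electron donors to the chain, *GUT2*, the mitochondrial glycerol-3-phosphate dehydrogenase, had 249, 177, 104, 121 and 79.2 CPM in BY *UBR1* -469A>T and 265, 331, 261, 255 and 158 in BY. It fell by 0.46 on the log2 scale (SE 0.075, adjusted p = 0.0033, edgeR), with overlap, and *DLD1*, D-lactate dehydrogenase, fell by 0.18 (adjusted p = 0.052, edgeR). Of 7 mitochondrially encoded subunits 3 passed the filter, *COX1*, *ATP6* and *OLI1*, and none was called, in libraries made from polyadenylated RNA.

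Leaving out BY replicate 1 added the most subunit calls of the 10 fits that each left out 1 library. This was the library with the highest subunit sum (7849) and the lowest *HAP4* value (95.1 CPM). It also had the largest value of the second surrogate variable (0.77, the others from -0.31 to 0.31). Both surrogate variables were estimated anew in the fit without this library, so the model changed along with the samples. Without it 15 members were called higher, against 10.9% of all transcripts, and 3 lower (*CYC3*, *CYT2* and *NDI1*). That fit called 1194 of 5995 transcripts in either direction, 656 of them higher. The 13 added to *HAP4* and *AAC3* were 6 genes of ATP synthase (*ATP1*, *ATP2*, *ATP4*, *ATP5*, *ATP16* and *ATP18*), 5 of complex IV (*COX4*, *COX5A*, *COX8*, *COX9* and *COX13*) and *QCR7* and *RIP1* of complex III, with log2 fold changes between 0.10 and 0.18.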

How the data were processed

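RNA from 10 cultures was sequenced as polyadenylated, strand-specific libraries. The authors trimmed reads with fastp and quantified transcripts with Kallisto against the Ensembl release 96 annotation; the deposited tables hold estimated counts, TPM and effective length per transcript. Estimated counts were rounded, and a transcript was kept where all libraries had a count of 10 or more and its effective length reached 1. TMM scaling, 2 surrogate variables (sva 3.50.0) and the quasi-likelihood test of edgeR 4.0.16 in R 4.3.3 compared the strains with Benjamini-Hochberg adjustment at 0.1. The study's fit also held batch and optical density, which were not used here. Alternatives were 0, 1 or 3 surrogate variables, DESeq2 1.42.0, upper-quartile or DESeq2 scaling, other filters, a replicate block and leaving out each library. The script for the fit was tested on simulated data for the recovery of known median fold changes. That test set no limit on false calls, and its simulated axis was drawn without regard to strain. Log2 CPM used a pseudocount of 0.5, and TPM were only described, as the authors deposited them.

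The members and lists were chosen with earlier results of these data known. Named with values were *HAP4*, the paralogs, the heme lyases, NADH dehydrogenases, carriers and complex II, in each other complex the 3 members with the smallest p and the one with the largest, up to 3 called genes of each other list with the largest absolute fold change, and the 5 transcripts that correlated best with *HAP4*. *HAP2*, *HAP3*, *HAP5*, *HAP1* and *ATP3* and the members called without BY replicate 1 were added after their values were seen. *HIS3*, *LEU2*, *MET17* and *URA3*, and 4 MATa and 3 MATalpha genes, were checked as strain markers; MATa genes were abundant and MATalpha genes low in all libraries. Gene positions come from R64, to which 5929 transcripts matched, and 45 of 46 members had the coding length of the reference.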

Additional observations from a re-analysis of the deposited data

Results flagged for a closer look

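Over the 46 members, the 4 paralog ratios and the library total, 102 groups of 5 values were examined, and 2 held a library far from the other 4, where chance alone gives about 1 in 20. *COX8*, a complex IV subunit, had 73.6 normalized CPM in BY *UBR1* -469A>T replicate 4, against 86.7 to 91.5 in the other 4 edited libraries. The gap to the nearest library was 0.729 of the whole range. *CYC3*, a heme lyase gene, was lowest in BY replicate 5, at 76.3 normalized CPM. The other 4 BY libraries lay between 88.0 and 92.4, and the gap was 0.722 of the range. Without that library the *CYC3* log2 fold change was -0.094 (edgeR adjusted p = 0.43).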

How the results depend on the processing

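Transcripts called, 1269 with 2 surrogate variables, numbered 0 with 0 (1400 at an unadjusted p under 0.05), 43 with 1, 1841 with 3, and 756 at an adjusted p under 0.05. With at least 100 counts in every library 1700 of 5571 were called, 925 of them higher. Upper-quartile scaling called 1236 transcripts, 579 of them higher, against 711 of 1269. Members called higher were 0 with 0 or 1 surrogate variable and 8 with 3. Members called lower were 0 with 0 or 1, 5 with 3, 5 with at least 100 counts in every library, and 0 at an adjusted p under 0.05. Leaving out 1 library gave 246 (BY replicate 5) to 1289 transcripts, with 329 without edited replicate 2, 699 without edited replicate 3, 801 without edited replicate 4 and 846 without BY replicate 2, and 1 to 15 members higher and 0 to 3 lower. The paralog differences then ranged from -0.14 (without BY replicate 1, exact p = 0.048) to -0.043 for *COX5B* over *COX5A*, from -0.69 (without edited replicate 1, exact p = 0.024) to -0.32 for *NDE2* over *NDE1*, and from 0.48 to 0.81 for *AAC3* over *PET9*.

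The replicate numbers share no stated batch, and same-numbered libraries correlated between -0.010 and 0.72, 5 of 10 best with their own number. With the replicate block and 0 surrogate variables 2373 transcripts, 2 members higher and 18 lower were called, 14 of the 34 subunits among the lower, and *QCR6* and *RIP1* stood at -0.17 each. All 4 complex II genes were among those called lower, *SDH1* at -0.48. With the block and 2 surrogate variables, 43 transcripts and 0 members in either direction were called, and *AAC3* stood at -0.084. With surrogate variables estimated with the block, chosen after seeing the data, 3274 transcripts, 3 members higher and 25 lower were called, 19 subunits among the lower, and *ATP4* stood at -0.085, *COX4* at -0.085, *COX5A* at -0.11, *QCR6* at -0.16, *QCR8* at -0.072, *RIP1* at -0.16 and *PET9* at -0.19. The causes were not tested.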
